A study of Mus musculus with 6 samples.

Results

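The unfolded protein response and the integrated stress response were described in 6 excised liver tumors through 37 genes of 35683 in the tables. The genes were chosen by their known place in 3 arms: 15 genes in the PERK/ATF4 arm, 8 in the IRE1/XBP1 arm and 14 in the ATF6 arm. Each gene was placed in 1 arm, so the arms here are lists of genes and not separate measures of the activity of each arm. All 6 tumors came from male CMRtdT mice on a C57BL/6 background, 3 macroscopic tumors from each of 2 mice. Both mice carried 1 *Ctnnb1* allele whose exon 3 is flanked by loxP sites, the *MUP-uPA* transgene and a Cre-dependent tdTomato reporter at the *R26* locus. Removal of that exon leaves β-catenin constitutively active, and *MUP-uPA* makes urokinase in hepatocytes and injures them. From an age of 6 weeks the animals ate a high-fat diet; an AAV8-TBG-Cre injection followed at 8 weeks, which confines Cre to hepatocytes through the TBG promoter. The tumors were collected 6.5 months after the injection. All 6 samples therefore share 1 condition, tumors of 1 mouse share an animal, and non-tumor liver is not analysed here.

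Protein folding in the endoplasmic reticulum (ER) is watched by 3 sensors of its membrane. PERK phosphorylates the initiation factor eIF2α, which slows translation in general but favors translation of the transcription factor ATF4; other kinases that sense amino acid shortage, viral RNA or heme shortage feed into the same step, and the shared output is called the integrated stress response. IRE1 removes a short intron from the mRNA of *Xbp1*, and the resulting factor raises genes of ER-associated degradation. ATF6 is cut in the Golgi and its released fragment raises ER chaperones. In hepatocytes, which secrete most plasma proteins, these arms are active at a basal level. By single-cell RNA sequencing the study described a cluster of β-catenin-mutant hepatocytes with a raised unfolded protein response, in normal and in CMRtdT livers. It also stained 2 proteins in such hepatocytes of normal liver: CHOP, encoded by *Ddit3*, and BiP, encoded by *Hspa5*.

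Promoter sequences are shown first, for genes of all 3 arms that differed most between the tumors and for the gene of BiP. The windows come from RefSeq on GRCm38.p6, run 5′ to 3′ on the strand of the gene, and include 20 bases on each side of the element where the start site allowed it. Of the 37 genes, 33 matched a promoter of 250 bases before to 50 bases after the start. The ER stress element (ERSE) was searched as CCAAT, any 9 bases and CCACG, on both strands, and capitals mark its fixed letters. These 3 genes with an ERSE are shown for their high values in tumor 2 of mouse 2 or, for *Hspa5*, as the gene of BiP.

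*Hspa5* (chr2:34772005-34772063, + strand): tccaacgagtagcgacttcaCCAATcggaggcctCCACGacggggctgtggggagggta
*Creld2* (chr15:88819500-88819558, + strand): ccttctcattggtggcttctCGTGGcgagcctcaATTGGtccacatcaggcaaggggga
*Derl3* (chr10:75893222-75893280, + strand): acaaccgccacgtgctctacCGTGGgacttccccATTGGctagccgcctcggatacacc

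The element lay on the gene's strand in *Hspa5* and on the opposite strand in *Creld2* and *Derl3*, where it reads as its reverse complement. An ERSE was found in 9 of the 33 genes, against 0.137% of 27025 genes with a promoter in the table. None of these 9 belonged to the PERK/ATF4 arm, 3 were of the IRE1/XBP1 arm (*Dnajc3*, *Syvn1* and *Derl3*) and 6 of the ATF6 arm (*Hspa5*, *Hsp90b1*, *Calr*, *Canx*, *Pdia6* and *Creld2*). *Herpud1* held the related ERSE-II, searched as ATTGG, any base and CCACG after the promoters had been seen, which 0.0444% of genes held.

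The C/EBP-ATF response element (CARE), the site of ATF4 with its partners, was searched as TGATGNAA on both strands. The 4 genes of the PERK/ATF4 arm with this element ahead of the start are shown, with the element in capitals.

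*Atf3* (chr1:191183416-191183463, − strand): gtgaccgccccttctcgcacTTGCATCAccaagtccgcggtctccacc
*Chac1* (chr2:119351029-119351076, + strand): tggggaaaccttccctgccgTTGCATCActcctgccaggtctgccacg
*Nupr1* (chr7:126625553-126625600, − strand): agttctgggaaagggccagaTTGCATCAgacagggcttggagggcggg
*Asns* (chr6:7693210-7693252, − strand): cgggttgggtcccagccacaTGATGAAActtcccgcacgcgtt

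A CARE was found in 6 of the 33 genes, against 4.51% of all genes; the other two were *Trib3*, past its start site, and *Herpud1*. The 8 letters of the UPR element (UPRE, TGACGTGG) were in none of the 33 promoters and in 0.714% of all. Of the 7 genes that were at least 2-fold higher in tumor 2 of mouse 2, described below, 5 held an ERSE, ERSE-II or CARE, against 10 of the 26 others. *Ddit3* and *Sdf2l1* were the 2 without one in this window. The 7 were picked by their values in that tumor, and the share of all promoters with any of these elements was not counted. Whether the elements relate to the values was not tested. A match of letters is a description of the sequence and not a measured binding site. The genes were chosen by their known place in these arms, so shares above those of all genes may follow from that choice.

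Tumor 1 of mouse 1 stood apart from the other 5 in all genes and not only in these. Its 10 hepatocyte markers summed to 1280 TPM (a share of all transcripts that takes transcript length into account), against 21200 to 37000 TPM in the others, and *Alb*, which encodes albumin, was at 702 TPM against 8350 to 16600. The markers of hepatocytes were thus abundant in 5 tumors and far lower in 1, and results are given with and without it. Mitochondrial genes took 15.0% to 37.2% of TPM per tumor, which lowers the TPM of every other gene where they are high. Total estimated counts ran from 19130532 to 27681766 per tumor. Tumors 2 and 3 of mouse 1 were the closest pair, with a chi-square of 7.73 per gene against 79.8 to 1558 for other pairs, so they still differed by more than sampling noise. Both are among the tumors that tumor 2 of mouse 2 is compared with below. In whole tumors, fewer cells of a type and less RNA per cell cannot be told apart.

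All 37 genes were measured, and all 37 averaged 1 TPM or more over the 6 tumors. An average of 10 TPM or more was reached by 32 of them and of 100 TPM or more by 9. The most abundant were *Atf5* (305 ± 141 TPM, SD, n = 6), *Hspa5* (294 ± 92.7 TPM) and *Calr* (272 ± 51.1 TPM), the gene of the lectin chaperone calreticulin. The sensors were at low levels. *Eif2ak3*, which encodes PERK, ran from 5.08 to 10.2 TPM, *Ern1*, which encodes IRE1α, from 5.12 to 16.5 TPM, and *Atf6* from 15.5 to 20.6 TPM. Over the 5 tumors with hepatocyte markers the coefficient of variation was 24.1% for *Eif2ak3*, 34.3% for *Ern1* and 13.9% for *Atf6*. It was 101% for *Ddit3*, 90.8% for *Nupr1* and 128% for *Derl3*.

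**Figure D1:**
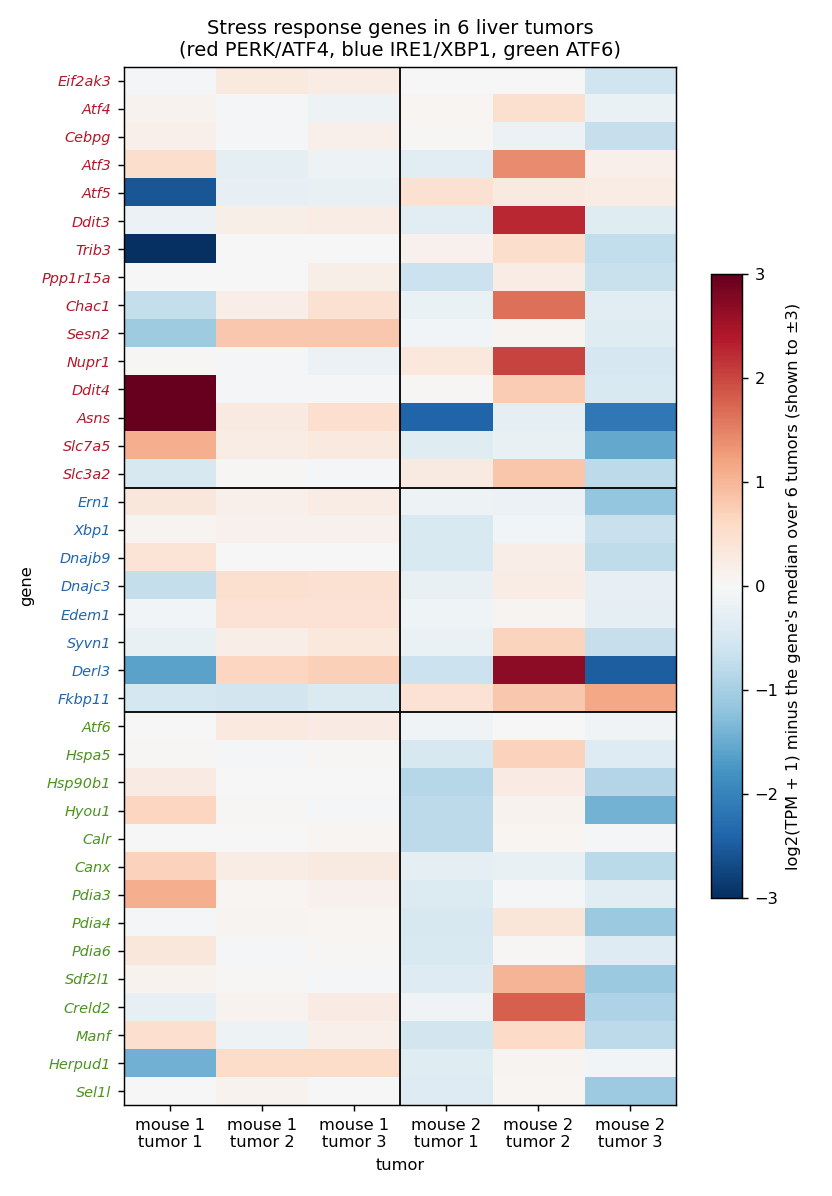
Each row is 1 of the 37 genes and each column 1 tumor; color gives log2(TPM + 1) minus the median of that gene over the 6 tumors, shown to ±3. Tumor 2 of mouse 2 is red for *Ddit3*, *Nupr1*, *Derl3* and *Creld2*, tumor 1 of mouse 1 is dark at *Asns*, *Ddit4* (high), *Trib3* and *Atf5* (low), and most rows are blue in tumor 3 of mouse 2.

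Tumor 2 of mouse 2 had the highest level of 20 of the 37 genes among the 5 tumors with hepatocyte markers, while 15.8% of the 11324 genes that averaged 1 TPM or more were highest there. Against the median log2(TPM + 1) of the other 4, 7 genes were at least 2-fold higher, where 1.75% of all genes were, and none was at least 2-fold lower, where 1.68% of all genes were. The count at least 2-fold higher was 1 gene in tumor 2 of mouse 1 (3.92% of all genes), 1 in tumor 3 of mouse 1 (3.95%), 0 in tumor 1 of mouse 2 (0.892%) and 1 in tumor 3 of mouse 2 (1.45%). The tumor was singled out after its values were seen, and 1 tumor allows no test. The median difference in tumor 2 of mouse 2 was 0.58 for the PERK/ATF4 arm, 0.28 for the IRE1/XBP1 arm and 0.39 for the ATF6 arm on the log2(TPM + 1) scale, beside −0.05 for all genes. Over the 37 genes it was 0.53, and 0.24 when either tumor 1 or tumor 3 of mouse 2 was left out. The median of all genes was then lower too, at −0.21 in both cases. These differences understate the change of low genes because of the pseudocount of 1.

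In the PERK/ATF4 arm, 4 of the 15 genes were at least 2-fold higher in tumor 2 of mouse 2: *Ddit3*, *Nupr1*, *Chac1* and *Atf3*. In the order of tumors 1, 2 and 3, *Ddit3*, the gene of the pro-apoptotic factor CHOP, had 26.7, 34.1 and 35.4 TPM in mouse 1 and 23.6, 148.5 and 23.4 TPM in mouse 2. One tumor thus held 5.14 times the median of the other 4 tumors with hepatocyte markers, and the other 5 values stayed within 23.4 to 35.4 TPM. *Nupr1*, a small stress-induced chromatin protein, was at 52.9, 50.8 and 46.0 TPM in mouse 1 and at 65.2, 216 and 36.3 TPM in mouse 2. *Chac1*, which degrades glutathione, was at 1.70, 4.02 and 5.05 TPM in mouse 1 and at 2.87, 12.8 and 2.51 TPM in mouse 2. *Atf3*, a factor induced by ATF4, was at 14.9, 8.08 and 8.90 TPM in mouse 1 and at 7.88, 28.4 and 11.4 TPM in mouse 2. For all 3 of these genes the same tumor was the highest of the 6, at 4.47, 3.71 and 3.35 times the median of the other 4. *Atf4* itself was also highest there, at 122 TPM where the remaining 5 had 75.2 to 93.4 TPM. *Slc3a2*, the heavy chain of amino acid transporters, was at 105 TPM there against 33.7 to 71.0 TPM. *Cebpg*, a partner of ATF4, was at 19.7 TPM there, within the 13.3 to 24.9 TPM of the others, and *Eif2ak3* was at 8.15 TPM, between the 5.08 and 10.2 TPM of the extremes. The targets *Sesn2* and *Slc7a5* were not raised, with 0.757 and 0.870 times the median of the other 4. *Trib3*, at 42.6 TPM, was highest there of all 6 tumors, and *Ddit4*, at 14.8 TPM, of those with hepatocyte markers. They were at 1.46 and 1.8 times the median of the other 4, short of 2-fold. *Ppp1r15a*, the stress-induced subunit that directs eIF2α dephosphorylation, was at 9.43 TPM there and at 9.11 TPM in tumor 3 of mouse 1.

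In the IRE1/XBP1 arm 1 of the 8 genes, *Derl3*, was at least 2-fold higher in tumor 2 of mouse 2. With *Derl3* included, 6 of the 8 lay above the median of the other 4, beside a median difference of −0.05 for all genes. *Fkbp11* was at 109 TPM there, 1.7 times the median of the other 4 and below the 138 TPM of tumor 3 of mouse 2. *Derl3*, a channel component of ER-associated degradation, was at 1.58, 11.3 and 11.8 TPM in mouse 1 and at 3.97, 49.7 and 0.412 TPM in mouse 2. Tumor 2 of mouse 2 held 997 of its estimated counts and tumor 3 of mouse 2 held 9, so the lowest value is set by few reads. *Syvn1*, the ubiquitin ligase of that pathway, was at 36.1 TPM in tumor 2 of mouse 2 against 13.6 to 28.1 TPM elsewhere. *Dnajb9* and *Dnajc3* encode cochaperones of BiP. *Dnajb9* was at 37.6 TPM there, above the 18.7 to 32.7 TPM of the other 4 tumors with hepatocyte markers. Tumor 1 of mouse 1 had 43.7 TPM of it. *Dnajc3* was at 34.8 TPM, inside the range of the others (17.6 to 42.0 TPM). *Xbp1* was at 114, 118 and 117 TPM in mouse 1 and at 78.0, 102 and 67.1 TPM in mouse 2, so tumor 2 of mouse 2 was not its highest tumor. *Ern1* and the mannosidase-like *Edem1* were at 0.871 and 0.932 times the median of the other 4. Of the 4 *Xbp1* transcripts in the tables, none had an intron shorter than 300 bases in the annotation, so the form spliced by IRE1 was not measured.

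In the ATF6 arm, small ER proteins led and chaperones followed. *Creld2*, an ER protein with isomerase activity, was at 31.1, 39.9 and 43.7 TPM in mouse 1 and at 34.3, 131 and 18.9 TPM in mouse 2. *Sdf2l1*, a partner of BiP cochaperones, was at 26.5, 25.3 and 24.3 TPM in mouse 1 and at 18.7, 50.9 and 10.9 TPM in mouse 2. *Hspa5* was at 295, 283 and 294 TPM in mouse 1 and at 205, 465 and 219 TPM in mouse 2. Tumor 2 of mouse 2 was the highest of all 6 for each of them, at 3.53, 2.37 and 1.85 times the median of the 4. *Manf*, a secreted ER stress protein, was at 214 TPM there and at 204 TPM in tumor 1 of mouse 1, and 45.0% of its TPM was assigned to transcripts with a retained intron. *Hsp90b1*, the ER paralog of HSP90, was at 253, 212 and 215 TPM in mouse 1 and at 118, 256 and 115 TPM in mouse 2, so 2 tumors were level at the top. For this gene tumor 2 of mouse 2 was at 1.55 times the median of the 4. *Hyou1*, *Pdia4* and *Sel1l* were at 1.41, 1.46 and 1.19 times the median of the 4, and *Canx*, the gene of calnexin, at 0.872 times. *Calr* and the disulfide isomerase genes *Pdia3* and *Pdia6* were at 1.05, 1.04 and 1.17 times the median. Of the 14 genes of the arm, 11 lay above the median of the other 4, beside a median difference of −0.05 for all genes. In this arm 8 were highest of the 5 tumors there, where 15.8% of all genes were. *Herpud1* and *Atf6* lay below the median of the other 4 with *Canx*, at 0.887 and 0.94 times, so the arm was not raised in every gene.

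**Figure D2:**
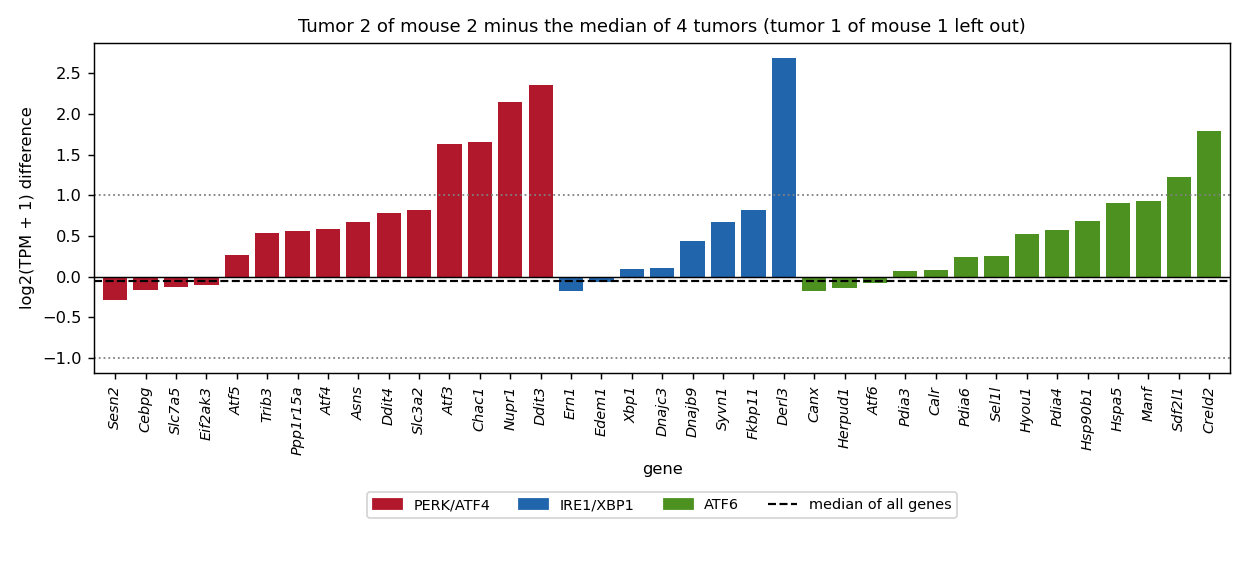
Bars give log2(TPM + 1) of tumor 2 of mouse 2 minus the median of the other 4 tumors with hepatocyte markers for each gene, ordered within its arm; the dashed line is the median of all genes (−0.05) and dotted lines mark a 2-fold difference. Bars of 7 genes pass the upper dotted line, led by *Derl3* (2.69) and *Ddit3* (2.35), and none passes the lower.

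Among 32 other targets of ATF4 that averaged 1 TPM or more, 8 were at least 2-fold higher in tumor 2 of mouse 2 on the log2(TPM + 1) scale, where 1.75% of all genes were, and none was lower, where 1.68% were. They were *Psat1*, *Phgdh* and *Psph* of serine synthesis, *Mthfd2* of mitochondrial folate metabolism, *Aldh18a1* of proline synthesis, *Pck2*, *Slc7a11* and *Fgf21*, all named after their values were seen. *Fgf21*, a hormone of the stressed liver, had 111 TPM there and 29.8 to 64.1 TPM in the remaining 4 with hepatocyte markers. *Slc7a11*, the cystine transporter, was at 42.4 TPM against 0.261 to 28.5 TPM. The most abundant genes of this list over all 6 tumors were *Pycr1*, *Gpt2* and *Cebpb*, at 0.328, 0.811 and 1.00 times the median TPM of the other 4. *Pycr1* owes that place to tumor 1 of mouse 1, and its 4.78 TPM here is a difference of −0.64 on the log2(TPM + 1) scale, within 2-fold. Of 31 other IRE1/XBP1 targets and genes of ER translocation and degradation, none was 2-fold higher, beside 1.75% of all genes; the most abundant, *Sec61b*, *Bloc1s1* and *Ssr4*, were at 1.38, 1.06 and 1.51 times the median. Of 25 other genes of the ATF6 family and of ER folding, 1 was, *Nucb2*, at 14.9 TPM against 0.936 to 4.76 TPM, while the most abundant, *P4hb*, *Ppib* and *Cnpy2*, were at 1.22, 1.21 and 1.28 times the median.

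Counts for lists of other stress programs in that tumor stand beside 1.75% of all genes higher, a share at which short lists would often hold none. Of 12 genes of the cytosolic heat shock response none was 2-fold higher and 2, the near-identical *Hspa1a* and *Hspa1b*, were lower; *Hspa8*, *Hsp90ab1* and *Hspb1* were at 1.32, 0.988 and 0.672 times the median. None of 8 genes of the mitochondrial unfolded protein response passed 2-fold in either direction, with *Hspe1*, *Hspd1* and *Hspa9* at 1.21, 0.762 and 0.885 times the median. None of 9 immediate early genes did, with *Jun*, *Junb* and *Zfp36* at 0.811, 1.04 and 0.950 times the median. None of the 11 other genes of eIF2 phosphorylation passed, and *Eif2s1*, *Ppp1r15b* and *Eif2b4* were at 1.08, 0.776 and 0.899 times the median.

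Markers of other cells varied between the tumors. The 10 plasma and B cell markers summed to 61.7 TPM, within the 60.1 to 89.2 TPM of the other 4, and *Sdc1*, also a gene of hepatocytes, and *Igkc* were at 46.0 and 7.82 TPM; *Mzb1*, a defining gene of antibody-secreting cells, was at 0.439 TPM. The 10 macrophage markers summed to 622 TPM, below the 714 and 711 TPM of the 2 tumors of mouse 1 with hepatocyte markers but above the 269 and 196 TPM of the others of mouse 2, with *Lyz2* and *C1qb* at 166 and 132 TPM. The 9 stellate cell and fibroblast markers, with *Dcn* and *Acta2* at 48.9 and 1.97 TPM, summed to 75.2 TPM, in the same order against the others. Pancreatic acinar markers summed to 258 TPM against 140 to 212 TPM; 257 TPM of this was *Cela1*, with *Cela2a* at 0.931 TPM and *Prss1* listed at 0. Hepatocyte markers summed to 21200 TPM, the lowest sum of the 5 tumors, where tumor 1 of mouse 2 had 21400 TPM and the rest at least 34100 TPM, with *Apoa1* at 4100 TPM. Their median difference in tumor 2 of mouse 2 was −0.70, beside −0.05 for all genes, and 1 of 10 was above the median of the other 4. Neutrophil markers (*S100a9* and *S100a8* at 7.50 and 3.72 TPM), T and NK cell markers (*Trbc2* and *Nkg7* at 3.40 and 2.07 TPM), endothelial markers (*Fcgr2b* and *Clec4g* at 13.3 and 10.3 TPM) and cholangiocyte markers (*Spp1* at 17.6 TPM) were at or below the highest of the other 4. Within mouse 2, this tumor was the highest for the sum of T and NK cell markers, above 3.66 and 7.07 TPM, and for cholangiocyte markers (26.3 TPM against 9.85 and 7.01). The part of all these markers in the result was not tested.

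Tumor 3 of mouse 2 lay at the other end. It had the lowest level of 28 of the 37 genes among the 5 tumors, but 55.0% of all genes were lowest there, and the median of all genes was −0.44. At least 2-fold below the median of the other 4 were 9 genes, where 11.9% of all genes were. The median difference was −0.70 for the PERK/ATF4 arm, −0.73 for the IRE1/XBP1 arm and −0.79 for the ATF6 arm. Relative to all genes these were −0.26, −0.29 and −0.35. On counts scaled by TMM the median of the 37 genes was −0.12 and that of all genes 0.02, so the size of this difference depends on the scale. *Fkbp11*, an isomerase of the secretory pathway, was the only one at least 2-fold higher, at 138 TPM.

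**Figure D3:**
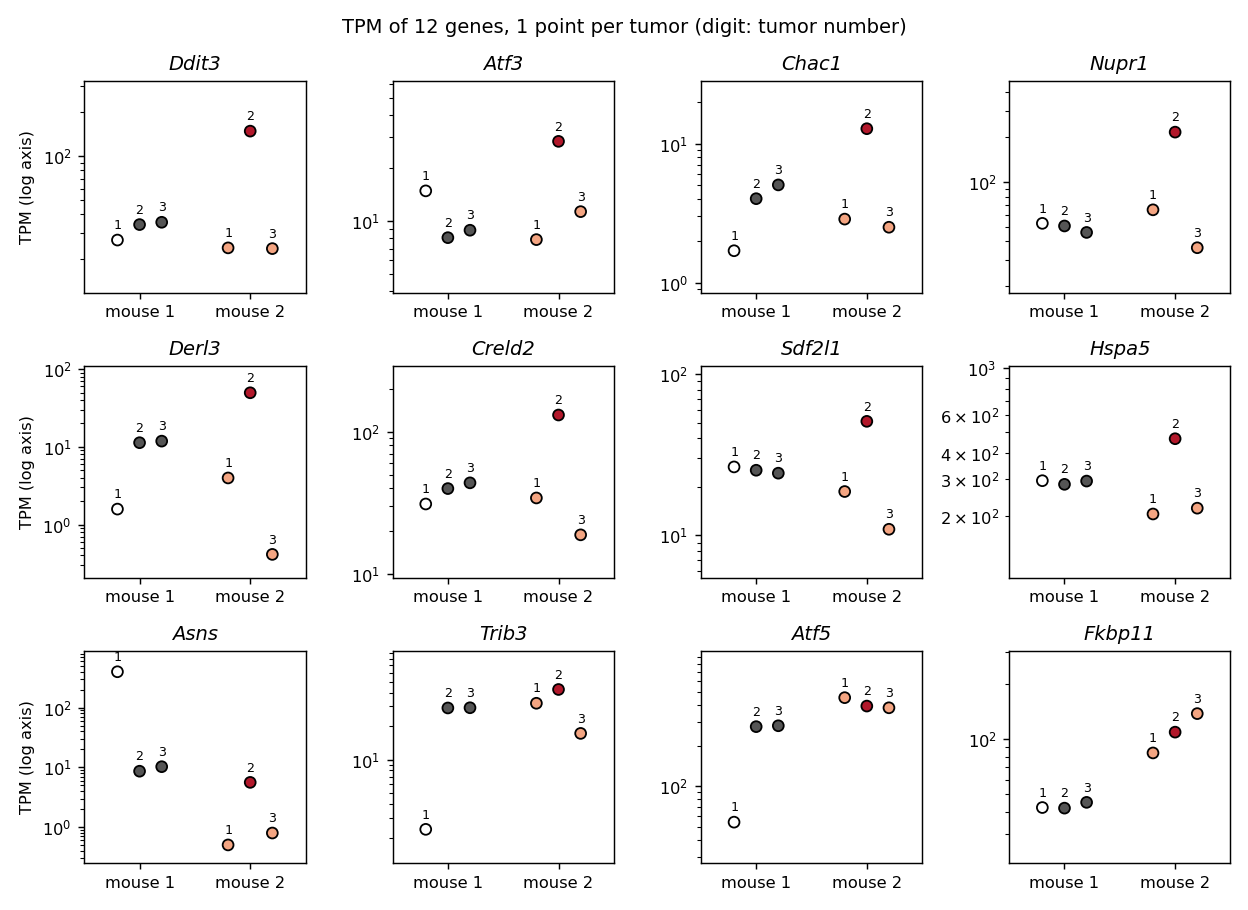
Points are the TPM of 12 genes on log axes, 1 point per tumor, with the tumor number above it; white is tumor 1 of mouse 1, grey the other tumors of mouse 1, dark red tumor 2 of mouse 2 and light orange the other tumors of mouse 2. *Ddit3* shows 1 high point at 148.5 TPM, *Asns* 1 at 398 TPM, and *Fkbp11* separates the mice.

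In tumor 1 of mouse 1 the arms did not rise with the other genes. Its median difference from the other 5 tumors was 0.89 over the 12518 genes that averaged 1 TPM or more, but 0.02 for the PERK/ATF4 arm, −0.29 for the IRE1/XBP1 arm and 0.09 for the ATF6 arm. Relative to all genes the 3 arms were thus lower by 0.87, 1.18 and 0.80, and with TMM, where the median of all genes was 0.06, the arms were at −0.93, −1.22 and −0.63. At least 2-fold higher were 4 genes, where 47.2% of all genes were, and at least 2-fold lower were 5, where 17.6% were. Relative to the median of all genes, 2 genes were at least 2-fold higher (24.3% of all genes) and 13 at least 2-fold lower (27.8% of all genes).

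Of the 9 genes past 2-fold in this tumor, 6 were of the PERK/ATF4 arm, 3 higher and 3 lower. *Asns*, asparagine synthetase, had 398, 8.60 and 10.2 TPM in mouse 1 and 0.501, 5.59 and 0.794 TPM in mouse 2, in the order of tumors 1, 2 and 3, the last from 3 estimated counts. *Ddit4*, an inhibitor of mTORC1, had 91.5 TPM, where the remaining 5 had 5.86 to 14.8 TPM. *Slc7a5*, the light chain of a transporter of large neutral amino acids, was at 11.5 TPM against 0.993 to 6.17 TPM. *Trib3*, a pseudokinase induced by ATF4 and CHOP, went the other way, at 2.37 TPM against 17.2 to 42.6 TPM. *Atf5* was at 54.3 TPM against 276 to 451 TPM, and *Sesn2* at 2.09 TPM against 4.05 to 10.5 TPM. *Ddit3*, at 26.7 TPM, lay within the range of the others. Genes known as targets of 1 factor, ATF4, thus lay on both sides of the others in the same tumor.

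The other arms held fewer such genes. *Derl3* and *Herpud1*, both of ER-associated degradation, were low, *Herpud1* at 75.1 TPM against 162 to 305 TPM. *Pdia3* was high, at 356 TPM against 126 to 183 TPM, or 0.26 above the median of all genes on the log2 scale. Among the other ATF4 targets, 9 of 32 were at least 2-fold higher and 8 lower, beside 47.2% and 17.6% of all genes; the most abundant, *Pycr1* of proline synthesis, was at 1060 TPM against 0.503 to 27.8 TPM, while *Gpt2* was at 24.8 TPM against 53.5 to 141 TPM and *Cebpb* at 7.07 TPM against 79.9 to 162 TPM.

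**Figure D4:**
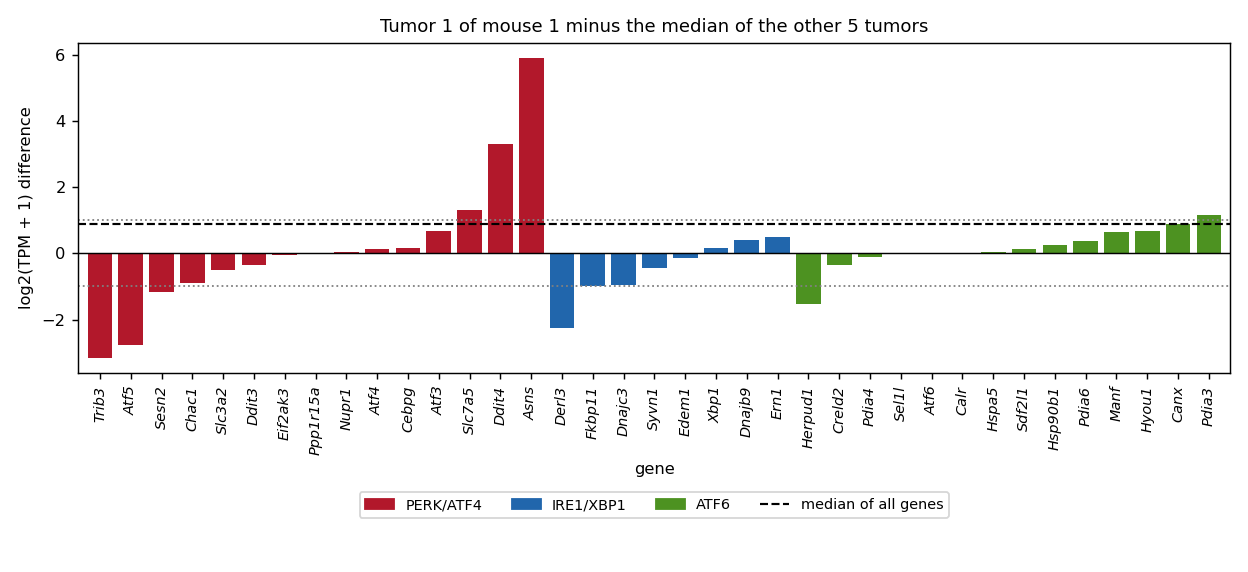
Bars give log2(TPM + 1) of tumor 1 of mouse 1 minus the median of the other 5 tumors for each gene, ordered within its arm; the dashed line is the median of all genes (0.89) and dotted lines mark a 2-fold difference. Bars of *Asns* (5.92) and *Ddit4* (3.32) rise far above the dashed line, *Trib3* (−3.16) and *Atf5* (−2.78) fall below the lower dotted line, and most genes of the ATF6 arm lie between 0 and the dashed line.

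The 2 mice were compared by edgeR's quasi-likelihood test with Benjamini-Hochberg adjustment, which measures 2 animals against the spread between tumors of 1 animal. With 6 tumors, 0 of 13268 genes were called (0.0%), and of the 37 genes none was; 1449 genes and 5 of the 37 had an unadjusted p under 0.05. On the same counts DESeq2 called 202 genes, *Fkbp11* and *Atf4* among them, and limma-voom called 0. In TPM *Atf4* overlapped between the mice, at 78.4 to 93.4 TPM in mouse 1 and 75.2 to 122 TPM in mouse 2. Without tumor 1 of mouse 1, edgeR called 168 of 13374 genes (1.26%), and 1 of the 37, *Atf5*. Mouse 1 is then represented by its closest pair of tumors alone, so its spread in every fit to these 5 tumors is that within this pair. Whether the pair are independent tumors was not tested. *Atf5*, a factor related to ATF4, was at 276 and 280 TPM in the pair of mouse 1 and at 451, 391 and 380 TPM in mouse 2. It was higher in mouse 2 by 1.23 on the log2 scale (SE 0.181, edgeR adjusted p = 0.0484), in 3 of 3 tumors. This difference is on TMM-scaled counts and is larger than that between the TPM. With 6 tumors the TMM factors were 1.009 and 1.015 in the pair of mouse 1 and 0.756 to 0.923 in mouse 2. With library size alone on these 5 tumors the call was lost (edgeR adjusted p = 0.0611), and over the other fits to them the adjusted p ran from 2.06e-09 (DESeq2) to 0.219 (edgeR with the replicate block). With tumor 1 of mouse 1, at 54.3 TPM, the edgeR adjusted p was 0.499.

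*Fkbp11* was at 42.1, 41.8 and 45.0 TPM in mouse 1 and at 84.0, 109 and 138 TPM in mouse 2, with no overlap in either set of tumors. The difference was 2.10 on the log2 scale (SE 0.343) with an edgeR adjusted p of 0.412 with 6 tumors, and 1.93 (SE 0.309) with an adjusted p of 0.052 without tumor 1 of mouse 1. Both differences are on TMM-scaled counts and are larger than those between the TPM. In those 5 tumors it was called by DESeq2 (adjusted p = 7.38e-07), limma-voom (adjusted p = 0.0334) and edgeR with library size alone (adjusted p = 0.0499), and not with the replicate block (edgeR adjusted p = 0.15). *Ddit3* was higher in mouse 2 by 1.60 (SE 0.759, edgeR adjusted p = 0.516), which rests on 1 of 3 tumors. Without that tumor, tumor 2 of mouse 2, it was 0.34. *Hspa5* differed by 0.68 (SE 0.486, edgeR adjusted p = 0.646), by 0.35 without the same tumor and by 0.25 with library size alone, and in TPM the other two tumors of mouse 2 lay below all 3 of mouse 1. None of the genes of the 7 related lists was called by edgeR with or without tumor 1 of mouse 1.

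Without tumor 1 of mouse 1, 2 of the 37 genes were higher in all 3 tumors of mouse 2 than in both of mouse 1 (4.81% of all genes), and 12 were lower in all 3 (56.9% of all genes). The 2 were *Atf5* and *Fkbp11*. The split depended on the scale. Mitochondrial genes took 20.1% and 20.7% of TPM in these tumors of mouse 1 and 27.2% to 37.2% in mouse 2, and their part in it was seen by leaving them out: 4 genes were then higher (10.3% of all genes) and 9 lower (38.4%). On counts scaled by TMM, 9 genes were higher (24.1% of all genes) and 4 lower (19.5%). *Atf5* and *Fkbp11* were higher, and *Sesn2*, *Asns*, *Slc7a5* and *Edem1* lower, on TPM, on TPM without mitochondrial genes and on TMM-scaled counts alike.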

How the data were processed

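RNAseq values of 6 tumors of 1 condition were used, from poly A-enriched libraries per the methods (the labels say total RNA). The authors deposited, per transcript, estimated counts without normalization and TPM, which correct for effective length and sum to the same total in each tumor. The tables have the layout of Salmon, which the study's reporting summary lists. GRCm38, BWA and Picard appear in the submitters' notes, with no version. Which release the index came from is not given in the sources. Of the transcripts, 114813 matched a GENCODE gene and 1733 did not; TPM and counts were summed per gene, and counts were rounded for the tests. A second identifier of *Ddit3* at 0 was left out. Totals ran from 19130532 to 27681766 estimated counts, and they limit counting error alone. Gene promoters came from RefSeq GRCm38.p6.

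The 37 genes, the lists and the tests were chosen with earlier results of these data known. The text names all 37 genes, the 3 most abundant of each related list and the 2 most abundant of each marker list, except 1 gene that is not reported here. Single tumors were compared with the median log2(TPM + 1) of the others, with a pseudocount of 1, among genes that averaged 1 TPM or more; at least 2-fold means a difference of 1. The mice were compared by edgeR 4.0.16 (quasi-likelihood, TMM, filterByExpr, two-sided, Benjamini-Hochberg, threshold 0.05), DESeq2 1.42.0 and limma-voom (limma 3.58.1). These tools were also run on simulated counts, with an outcome that is not given here. Those counts were drawn independently for each tumor, so the likeness of tumors of 1 animal was not simulated. Tumors of 1 animal are no independent animals. A tumor stood apart where Dixon's ratio on log2(TPM + 1) passed 0.625 for 6 or 0.710 for 5 tumors. Deviations of same-numbered tumors correlated at 0.025, −0.043 and 0.049, so the tumor numbers do not pair the samples. Protein sequences were not used here. Scripts ran in Python 3.11.15 (pandas 2.3.3, numpy 2.4.6, scipy 1.17.1, matplotlib 3.10.9) and R 4.3.3.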

Additional observations from a re-analysis of the deposited data

Results flagged for a closer look

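Values that stood apart from the other tumors by Dixon's ratio on log2(TPM + 1) are listed here; chance alone marks about 1 in 20 groups. Among 6 tumors, 9 of the 37 genes were marked, where 38.8% of all genes were; among 5 tumors without it 4 were, where 5.21% of all genes were. Tumor 2 of mouse 2 was high for *Ddit3* (ratio 0.779 among 6 tumors and 0.779 among 5), *Nupr1* (0.675 among 6) and *Atf3* (0.724 among 5). Tumor 1 of mouse 1 was high for *Ddit4* (0.679), *Asns* (0.639) and *Pdia3* (0.643) and low for *Atf5* (0.766) and *Trib3* (0.659), all among 6 tumors. Tumor 3 of mouse 2 was low for *Ern1* (0.653 among 6 and 0.712 among 5), and tumor 1 of mouse 2 was low for *Calr* (0.895 among both 6 and 5), at 168 TPM against 283 to 300 TPM.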

How the results depend on the processing

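Between the mice, edgeR called 0 genes with 6 tumors, and leaving out 1 tumor at a time gave 0 to 168 genes and 0 to 1 of the 37, the upper values without tumor 1 of mouse 1. DESeq2 called 202 genes and 2 of the 37. Without tumor 1 of mouse 1, DESeq2 called 1369 genes and 5 of the 37, limma-voom 477 and 2, and library size alone 151 and 1 (*Fkbp11* in place of *Atf5*); these fits were added after the data were seen. With tumor number as a replicate block, edgeR called 0 genes with 6 and with 5 tumors. In tumor 1 of mouse 1, the 4 genes at least 2-fold higher became 2 with TMM, 2 against the nearest of the other tumors and 2 relative to the median of all genes. The 5 genes at least 2-fold lower became 14 with TMM, 8 without mitochondrial genes, 3 against the nearest tumor and 13 relative to all genes. Relative to their median, 24.3% of all genes were higher and 27.8% lower. For the other changed settings the shares of all genes are not given here. The median of all genes in this tumor moved from 0.89 to 0.06 with TMM and to 0.70 without mitochondrial genes. The medians of its PERK/ATF4, IRE1/XBP1 and ATF6 arms, 0.02, −0.29 and 0.09, moved to −0.93, −1.22 and −0.63 with TMM. In tumor 2 of mouse 2, the 7 genes at least 2-fold higher became 11 with TMM, and 8 to 11 when 1 of the other 4 tumors was left out. All 7 remained in each of these, and 6 remained against the nearest tumor. The median of all genes in that tumor moved from −0.05 to 0.02 with TMM. With 1 of the other 4 left out it ran from −0.21 to 0.11. The shares of all genes in these changed settings are not given here. Comparisons of single tumors were added after the data were seen. The 14 genes that did not overlap between the mice became 15 to 30 when 1 tumor was left out, the most without tumor 2 of mouse 2. Before that, 4.81% of all genes lay above and 56.9% below in mouse 2. The shares of all genes with 1 tumor left out are not given here, so these counts are no result about the 37 genes. The mean TPM of 16 of the 37 genes moved by over 1 SD without mitochondrial genes, and of 1 with coding transcripts alone. The causes of these changes were not tested. Low counts limit *Derl3* and *Asns* in tumor 3 of mouse 2.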
